A study of Mus musculus with 32 samples.

Results

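The 2 compartments of WT core // fibroblast assembloids, the fibroblast-laden hydrogel and the tendon core explant embedded in it, were compared across all genes. Of the 32 libraries in the series, the labels place 10 in this comparison: 6 hydrogel pools and 4 core pools, all taken on day 7 of co-culture. The hydrogel pools contained a collagen-1 gel of rat tail origin, seeded with mixed fibroblasts that had been isolated from wildtype mouse Achilles tendons and passaged on plastic (tendon progenitors in the labels), together with any cells that had left the embedded core. The core pools contained tail tendon fascicles from a single wildtype mouse each (mixed tenocytes in the labels). These fascicles had been held in clamps inside such gels. The paper reports signs that seeded fibroblasts move into such cores, so the core pools may contain these cells as well. Core values are therefore not those of tail tenocytes alone, and the share of seeded cells in them was not tested. Donors were adult male and female B6.129S2-Il6tm1Kopf/J mice of genotype Il-6+/+, and both compartments of an assembloid shared one medium with serum, L-ascorbic acid and macrophage colony-stimulating factor. The seeded cells were pooled from several mice, so the hydrogel pools cannot be taken as independent in their main cell source. The p-values below measure the spread between pools. Compartment, anatomical origin (Achilles or tail) and passage in culture changed together, so their parts in any difference cannot be told apart. In bulk libraries, fewer cells of a type and less RNA per cell cannot be told apart either.

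A tendon has a load-bearing core of aligned type I collagen, in which stellate tenocytes sit between fibrils, and a looser sheath (the paratenon) that holds fibroblasts, vessels, nerves and immune cells. Tenocyte identity is marked by the transcription factors Scx and Mkx and by the membrane protein Tnmd. Fibroblasts of the sheath can proliferate, contract and lay down provisional matrix after injury. HOX genes, transcription factors in 4 chromosomal clusters numbered in the order of the body axis, and limb factors such as Pitx1 and Tbx4 keep a record of where in the body a fibroblast came from.

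The hydrogel libraries contained 25.1 to 59.9 M counts (median 44.2) and the core libraries 30.1 to 37.6 M counts (median 31.2), where M stands for mega. Levels are given as CPM, the count of a gene per M counts of its library, after scaling of the 10 libraries for composition, and every fold change is hydrogel over core on the log2 scale ± SE. The first principal component held 78.6% of the variance and separated the compartments. The core libraries also differed in ways that no tendon gene list covers. They detected more genes (18074 to 18809 in hydrogels, 21470 to 22724 in cores). In hydrogels, 1547 olfactory, vomeronasal and taste receptor genes, which neither compartment is known to use, summed to 12.2 to 22.0 CPM, against 92.5 to 150 CPM in cores. Gene models that GENCODE lists as still to be experimentally tested were lower in the hydrogel in 1203 of 1401 cases and higher in 46. The median log2 fold change was -1.17 for genes under 1 CPM on average, and 0.16 for genes over 64 CPM on average. The part of this background in the results was not tested beyond the alternatives given with them.

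Across all genes, the compartments differed widely. Of 16037 genes tested, 2905 (18.1%) were higher and 3965 (24.7%) lower in the hydrogel than in the core, at an adjusted p under 0.05 and a log2 fold change beyond 0.5 (edgeR quasi-likelihood test, Benjamini-Hochberg adjustment). The median over all genes tested was -0.000778. Counts of called list members below are to be read against the 18.1% higher and 24.7% lower. Among genes annotated as protein-coding with at least 10 CPM in the higher group, the balance was the other way round, with 1971 higher and 1332 lower of 10202. For 2490 of the higher and 3555 of the lower genes, the values of the 6 hydrogels and the 4 cores did not overlap. Hydrogels and cores were paired by the run code and N number of their titles, read here as the pool, which the labels do not define. In all 4 such pairs, direction was the same for 2871 higher and 3919 lower genes. These counts of overlap and of pairs cover only called genes, in the libraries that gave the calls, and are no independent support.

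**Figure D1:**
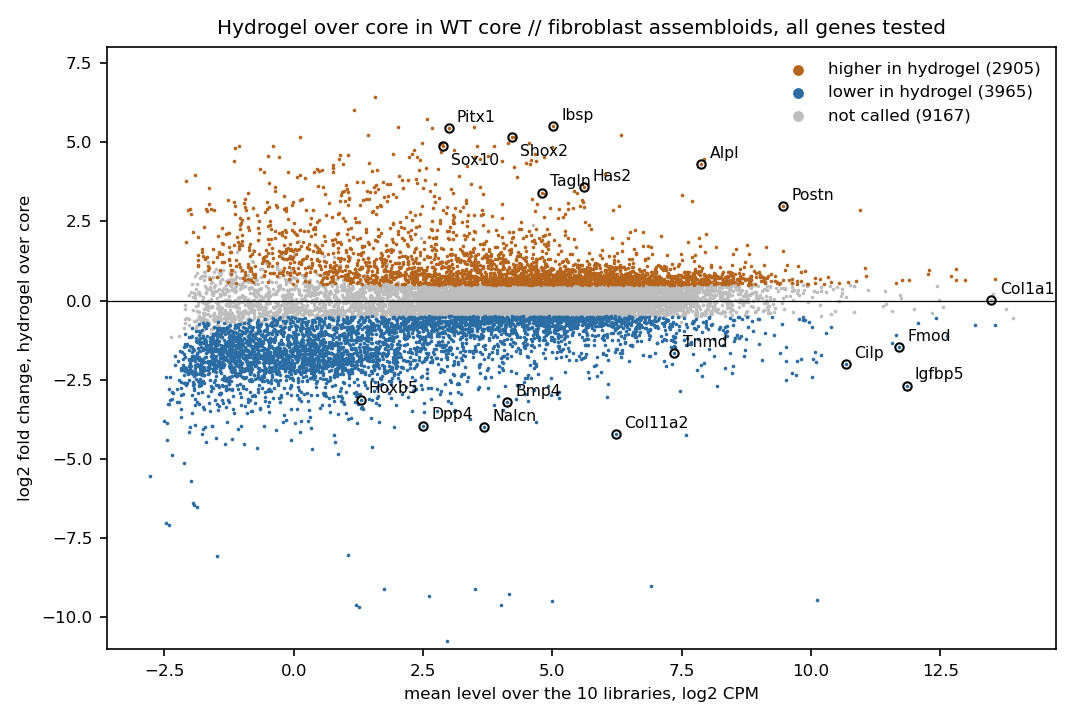
Log2 fold change, hydrogel over core (vertical axis), of the 16037 genes tested against their mean level over the 10 libraries in log2 CPM (horizontal axis). Brown points are the 2905 genes higher in the hydrogel, blue points the 3965 lower ones and grey points the rest. Lower genes crowd at low levels on the left, while Alpl, Postn and Has2 lie high and Igfbp5, Cilp and Fmod lie low among abundant genes.

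The 12 higher genes with the lowest p at a log2 fold change beyond 2 and at least 10 CPM encoded matrix, signalling and contractile proteins. Has2, which makes hyaluronan at the plasma membrane, led them with 61.4 to 85.5 CPM in hydrogels (median 79.1), against 5.9, 6.61, 6.73 and 6.59 CPM in cores. Each hydrogel was far above each core (12-fold, 3.58 ± 0.10, adjusted p = 5.48e-09). Cx3cl1, the membrane-bound chemokine fractalkine, had 105 to 138 CPM in hydrogels (median 114), against 16.2, 12.9, 13.6 and 18.1 CPM in cores (2.98 ± 0.12, adjusted p = 3.11e-08). The others were the contractile gene Tagln and the matricellular gene Ccn2, described with the contractile programme, the protease inhibitor Serpine2, the insulin-like growth factor (IGF) pathway protease Pappa (3.11 ± 0.15), the membrane junction gene Jph2 (4.89 ± 0.21), the G-protein signalling regulators Rgs4 (4.69 ± 0.20) and Rgs17 (4.75 ± 0.22), the oestrogen-induced gene Greb1 (3.57 ± 0.17), the adrenergic receptor gene Adra2a (4.95 ± 0.27) and Cyp26b1, whose product breaks down retinoic acid (2.86 ± 0.15). All of them were at least 4.18-fold higher, and in none did the groups overlap, which the rule that chose them largely fixed in advance. Jph2, Rgs4, Rgs17 and Adra2a stood at 0.588 to 1.12, 0.327 to 0.692, 0.359 to 0.725 and 0.196 to 0.56 CPM in cores, so their levels there were low.

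The 12 lower genes chosen the same way included transcription factors, a guidance ligand and an ion channel. Fibin, a secreted protein gene known from limb and fin bud outgrowth, had 97.2 to 113 CPM in hydrogels (median 104), against 435, 371, 399 and 509.5 CPM in cores (-2.03 ± 0.09, adjusted p = 3.75e-08). The lowest core was more than 3 times the highest hydrogel. Nalcn, a sodium leak channel gene, had 1.09 to 2.48 CPM in hydrogels (median 1.88), against 31.1, 23.4, 27.4 and 34.98 CPM in cores (-3.99 ± 0.21). The developmental transcription factors Eya1 (-2.70 ± 0.13), Meis1 (-2.14 ± 0.11), Pknox2 (-2.83 ± 0.14) and Zic4 (-2.79 ± 0.14) were lower, as were the axon guidance ligand Sema6a (-2.56 ± 0.13), the protease Adamts6 (-2.45 ± 0.13), the small GTPase regulators Arhgap20 (-2.30 ± 0.12) and Arhgef16 (-3.48 ± 0.19), the glycosyltransferase gene Mgat4c (-2.85 ± 0.15) and the pseudokinase gene Nrbp2 (-2.01 ± 0.10). In all 12, the hydrogel and core values were fully apart, which their choice by p and fold change made likely.

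The tendon programme sat in the core. Of 18 tendon lineage and tendon matrix genes tested, 14 were lower in the hydrogel and 1 was higher, with a median of -1.53, against the 24.7% lower, 18.1% higher and the median of -0.000778 of all genes tested. Their summed level was 6233 to 13558 CPM in hydrogels and 16344 to 26077 CPM in cores. The 1 higher gene, Pcolce2 (1.01), an enhancer of collagen processing, was named after its values were seen. Both lineage factors were among the lower genes. Mkx had 47.5 to 72.3 CPM in hydrogels (median 60.4), against 209, 167, 218 and 229 CPM in cores (-1.76 ± 0.12, adjusted p = 4.03e-07), with the groups well apart. Scx had 6.88 to 13.3 CPM in hydrogels (median 9.41), against 28.8, 16.4, 25.99 and 14.7 CPM in cores (-1.15 ± 0.21), so its level was low in both compartments and lowest in hydrogels. Tnmd was spread widely, with 18.9 to 187 CPM in hydrogels (median 83.5), against 418, 119, 281 and 296 CPM in cores, and the highest hydrogel lay above the lowest core (-1.66 ± 0.48, adjusted p = 0.00856).

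Several matrix genes of the tendon list were lower in the hydrogel. Fmod, a small proteoglycan that controls fibril growth, had 1317 to 2859 CPM in hydrogels (median 1984), against 6681, 3554, 5157 and 6263 CPM in cores (-1.47 ± 0.23, adjusted p = 0.000122). Cilp, a matrix protein of the intermediate layer of cartilage and of tendon, had 412 to 1033 CPM in hydrogels (median 709), against 2823, 2112, 3429 and 3533 CPM in cores (-2.01 ± 0.23), and its relative Cilp2 had 1.36 to 16.3 CPM in hydrogels (median 6.17), against 95.7, 33.7, 70.6 and 64.2 CPM in cores (-2.97 ± 0.51). The values of neither gene overlapped between the compartments. Angptl7, a secreted angiopoietin-like protein, fell to 30.1 to 108 CPM in hydrogels, against 158, 231, 231 and 402 CPM in cores (-1.91 ± 0.33). Comp, a pentameric cartilage and tendon protein, was not called (1175 ± 321 CPM in hydrogels and 1594 ± 491 CPM in cores, SD, adjusted p = 0.102). In the 4 WT cores held in cell-free hydrogels, scaled with all 32 libraries, Mkx had 188 to 227 CPM and Fmod 3825 to 5914 CPM.

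The genes for the bulk collagens did not follow the tendon genes. Col1a1 had 7030 to 16243 CPM in hydrogels (median 12092), against 14978, 5915, 12296 and 12424 CPM in cores (0.02 ± 0.29, adjusted p = 0.954). Col3a1, the collagen of loose and healing tissue, had 9745 to 15150 CPM in hydrogels (median 12027), against 12931, 8058, 10703 and 11377 CPM in cores (0.20 ± 0.18, adjusted p = 0.32). In both genes the groups overlapped, and neither was called. Col1a2 had 8235 to 17969 CPM in hydrogels (median 13035), against 22512, 10701, 20828 and 21359 CPM in cores (-0.54 ± 0.26, adjusted p = 0.0792), with a core replicate (2) far below the other cores. Without core replicate 2 Col1a2 was called lower in the hydrogel (-0.72), as it was without hydrogel replicate 2 (-0.66) and with the pools as blocks (-0.56). Of 22 fibrillar and fibril-associated collagen genes, 7 were higher and 6 lower (median 0.26, 0.16 without core replicate 2), and 3 were lower with levels centred on length. Basement membrane genes were split evenly, with 8 higher and 7 lower of 27. The shares higher and lower were 31.8% and 27.3% for the fibrillar list and 29.6% and 25.9% for basement membrane genes. Over all genes tested they were 18.1% and 24.7%. The network collagen chain Col4a5 (2.44 ± 0.15) and the laminin chain Lamc3 (2.16 ± 0.25) were higher, and Col4a3 (-1.83 ± 0.21), Col4a4 (-2.29 ± 0.26) and Lama2 (-1.65 ± 0.21) were lower.

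Several minor collagens and proteoglycans differed strongly, and in both directions. Col11a2, which helps to nucleate fibrils in cartilage and developing tendon, had 2.53 to 15.3 CPM in hydrogels (median 9.57), against 199.9, 79.1, 201 and 217 CPM in cores (18.5-fold lower, -4.21 ± 0.41). Col18a1, a basement membrane collagen that releases endostatin, had 199.6 to 408 CPM in hydrogels (median 257), against 26.1, 29.6, 23.5 and 34.2 CPM in cores (9.97-fold higher, 3.32 ± 0.23). Col14a1, a fibril-associated collagen, had 144 to 405 CPM in hydrogels (median 294), against 86.2, 78.4, 67.4 and 73.7 CPM in cores (1.86 ± 0.27). These 3 genes showed no overlap. Col5a1 (0.74 ± 0.15), Col5a3 (1.09 ± 0.17) and Col6a2 (0.72 ± 0.15) were higher and Col11a1 (-1.11 ± 0.28) was lower. The collagen-modifying enzymes split as well: P4ha2 (1.40 ± 0.20), P4ha3 (1.07 ± 0.13) and Plod2 (1.00 ± 0.09), hydroxylases of proline and lysine, were higher, and the prolyl 3-hydroxylase P3h2 was lower, with 16.3 to 32.3 CPM in hydrogels (median 25.8), against 132, 82.3, 110.4 and 142 CPM in cores (-2.27 ± 0.20).

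Of 19 small leucine-rich and large proteoglycans tested, 9 were lower and 6 higher (median -0.69). Dcn, which coats collagen fibrils and binds growth factors, had 1791 to 2672 CPM in hydrogels (median 2229), against 5006, 3641, 4478 and 5674 CPM in cores (-1.07 ± 0.15, adjusted p = 4.85e-05). Prelp (-1.74 ± 0.24), Podn (-1.19 ± 0.17) and Epyc (-2.18 ± 0.23) of the same family were lower, and Omd (2.95 ± 0.38) was higher. The large, hyaluronan-binding proteoglycans went the other way. Vcan, abundant in provisional matrix, had 649 to 1080 CPM in hydrogels (median 726), against 374, 210.4, 169.7 and 204 CPM in cores (1.69 ± 0.23), and Acan, the aggregating proteoglycan of cartilage, had 41.1 to 87.9 CPM in hydrogels (median 59.2), against 12.7, 2.86, 5.52 and 7.71 CPM in cores (3.08 ± 0.37). Hapln1, which links them to hyaluronan, was higher as well (2.75 ± 0.15). Of 10 genes of hyaluronan synthesis and turnover, 6 were higher, Has2 among them, and 2 lower (median 0.58). Has1 (-1.47 ± 0.20) and the hyaluronidase gene Cemip (-0.84 ± 0.18) were the lower ones. Among elastic fibre genes, 8 of 20 were higher and 6 lower. Fbln1, an elastic fibre and basement membrane protein, had 252 to 459 CPM in hydrogels (median 344), against 1337, 1167, 1254 and 1470 CPM in cores (-1.92 ± 0.15).

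**Figure D2:**
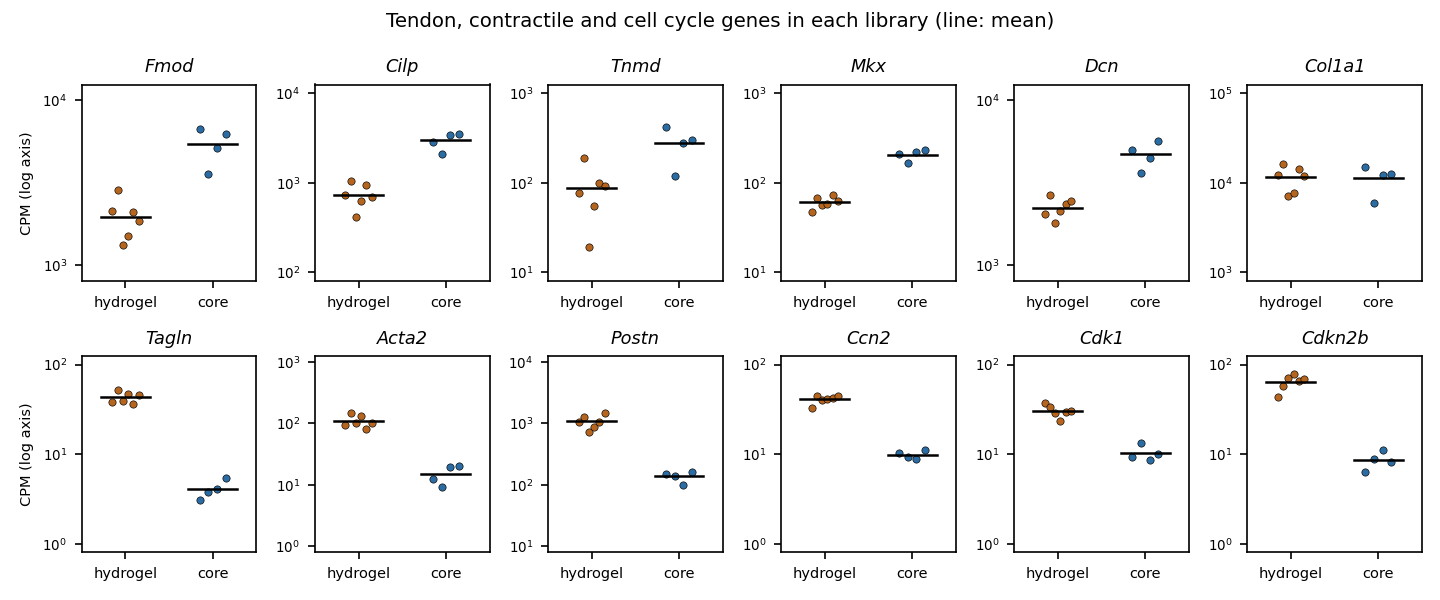
CPM on a log axis in each of the 6 hydrogel and 4 core libraries for 12 genes (line: mean of the group). Fmod, Cilp, Mkx and Dcn lie lower in each hydrogel than in each core, Tnmd and Col1a1 overlap, and Tagln, Acta2, Postn, Ccn2, Cdk1 and Cdkn2b lie higher in each hydrogel.

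Contractile genes, where they differed, were higher in the hydrogel. Of 20 myofibroblast and contractile genes, 10 were higher and 0 lower (median 0.48), and the 10 others were not called. Acta2, smooth muscle actin and the usual mark of a myofibroblast, had 81.98 to 149.6 CPM in hydrogels (median 101), against 12.5, 9.43, 19.5 and 19.96 CPM in cores (7.19-fold, 2.85 ± 0.24, adjusted p = 1.89e-06). Tagln, an actin-bundling protein, had 36.7 to 52.4 CPM in hydrogels (median 42.9), against 3.11, 3.75, 4.11 and 5.47 CPM in cores (3.41 ± 0.16). Cnn1 (calponin) had 7.51 to 14.5 CPM in hydrogels (median 8.56), against 0.644, 0.655, 0.163 and 0.593 CPM in cores (4.18 ± 0.32), and the myosin light chain Myl9 had 15.5 to 29.2 CPM in hydrogels (median 20.7), against 2.65, 1.96, 4.9 and 4.22 CPM in cores (2.65 ± 0.26). The groups did not overlap in any of these 4 genes. Smaller differences were found for Tagln2 (0.91 ± 0.07), Zyx (0.66 ± 0.05) and Tpm4 (0.53 ± 0.07), and the call of Tpm4 was lost without core replicate 4.

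Among 20 repair fibroblast genes and targets of the mechanosensitive factors YAP and SRF, 10 were higher and 2 lower (median 0.79). The lower ones were Amotl2 (-0.64) and Crim1 (-0.53), named after their values were seen, and 1 was lower without core replicate 4. The summed level of the list overlapped, with 19880 to 27312 CPM in hydrogels and 16096 to 30094 CPM in cores. Postn (periostin), a matricellular protein of healing tissue, had 723 to 1456 CPM in hydrogels (median 1062), against 148, 139.9, 98.1 and 164 CPM in cores (7.86-fold, 2.98 ± 0.22). Thbs1 (thrombospondin 1), which can activate latent TGF-beta, had 2164 to 3861 CPM in hydrogels (median 2979), against 267, 314, 492 and 589.7 CPM in cores (2.86 ± 0.26), and Ccn2, a matricellular YAP target, had 33.2 to 45.1 CPM in hydrogels (median 42.1), against 10.3, 9.31, 8.82 and 11.1 CPM in cores (2.06 ± 0.10). Tnc (tenascin C) had 489 to 598 CPM in hydrogels (median 536), against 305, 252, 213 and 170.1 CPM in cores (1.21 ± 0.14). For each of the 4, the lowest hydrogel exceeded the highest core. Cthrc1 (1.16 ± 0.09) and the collagen-binding integrin gene Itga11 (1.48 ± 0.17) were also higher. Scaled with all 32 libraries, Thbs1 had 276 to 601 CPM in these cores and 706 to 3821 CPM in cell-free cores. Of 28 integrins and matrix receptors, 12 were higher and 6 lower, Itgb3 (1.54 ± 0.14), Itgav (0.79 ± 0.08) and Itga8 (1.64 ± 0.16) among the higher and Itga2 (-1.49 ± 0.16) among the lower.

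Pericyte and smooth muscle genes share part of the contractile list. Of 11 tested, 7 were higher and 0 lower, Acta2 and Cnn1 among them. Mcam (CD146), an adhesion molecule of pericytes, was also higher (14.9 ± 6.81 CPM in hydrogels and 2.94 ± 0.606 CPM in cores, SD, 2.35 ± 0.33). The paper describes the seeded Achilles fibroblasts as mainly Scx+ and CD146+, from markers of cultured cells and not from RNA of day 7 hydrogels. Scx RNA, unlike that of Mcam, was lower in the hydrogel than in the core, as given above. The defining late smooth muscle gene Myh11 was near the limit of detection (0.573 ± 0.129 CPM in hydrogels and 0.632 ± 0.0633 CPM in cores), as was the pericyte gene Rgs5 (1.36 ± 0.746 CPM in hydrogels and 0.853 ± 0.497 CPM in cores), and neither was called.

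Most positional genes differed between the compartments. Of 34 HOX genes tested, 22 were lower and 7 higher in the hydrogel. All 6 tested genes of the Hoxd cluster were higher, while in the Hoxa, Hoxb and Hoxc clusters 22 of 28 were lower and 1 (Hoxa11, 0.73 ± 0.20) was higher. The split by cluster was chosen after the values were seen. Hoxd8 had 7.24 to 14.7 CPM in hydrogels (median 11.02), against 0.536, 0.952, 0.914 and 0.922 CPM in cores (3.67 ± 0.26), Hoxd9 had 2.03 to 4.18 CPM in hydrogels (median 2.61), against 0.241, 0.357, 0.163 and 0.395 CPM in cores (3.33 ± 0.34), and Hoxd10 had 1.34 to 3.74 CPM in hydrogels (median 2.02), against 0.161, 0.119, 0.098 and 0.132 CPM in cores (4.07 ± 0.42). All 3 were low in absolute terms and lower still in each core. Under a filter of at least 10 counts in every sample, 1 of 15 genes of paralogue groups 1 to 8 and 1 of 8 genes of groups 9 to 12 were higher, since fewer genes entered the test.

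The other clusters ran against them. Hoxb5 had 0.37 to 1.11 CPM in hydrogels (median 0.549), against 5.77, 4.61, 4.47 and 5.9 CPM in cores (-3.13 ± 0.25) and Hoxb6 had 0.874 to 1.99 CPM in hydrogels (median 1.3), against 7.8, 6.9, 7.45 and 6.92 CPM in cores (-2.45 ± 0.20). Genes of paralogue group 13, which mark the tail end of the body axis and the tip of the limb, were also lower: Hoxa13 had 7.17 to 11.4 CPM in hydrogels (median 9.25), against 26.3, 20.7, 25.3 and 27.2 CPM in cores (-1.43 ± 0.12) and Hoxb13 had 4.2 to 8.55 CPM in hydrogels (median 6.29), against 17.8, 22.9, 17.8 and 18.6 CPM in cores (-1.59 ± 0.18). Their values did not overlap between the compartments. Hoxc13 had 3.29 to 5.09 CPM in hydrogels (median 3.999), against 5.5, 4.61, 5.16 and 4.15 CPM in cores and was not called (-0.22 ± 0.15, adjusted p = 0.199). Low-level genes as a group were lower in the hydrogel (median -1.17 under 1 CPM and -0.29 from 1 to 8 CPM), and most HOX genes of groups 1 to 8 lay in this range. With the per-base level of receptor genes subtracted, an alternative chosen after seeing the data, 16 genes of groups 1 to 8 were lower and 3 higher, as without it.

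**Figure D3:**
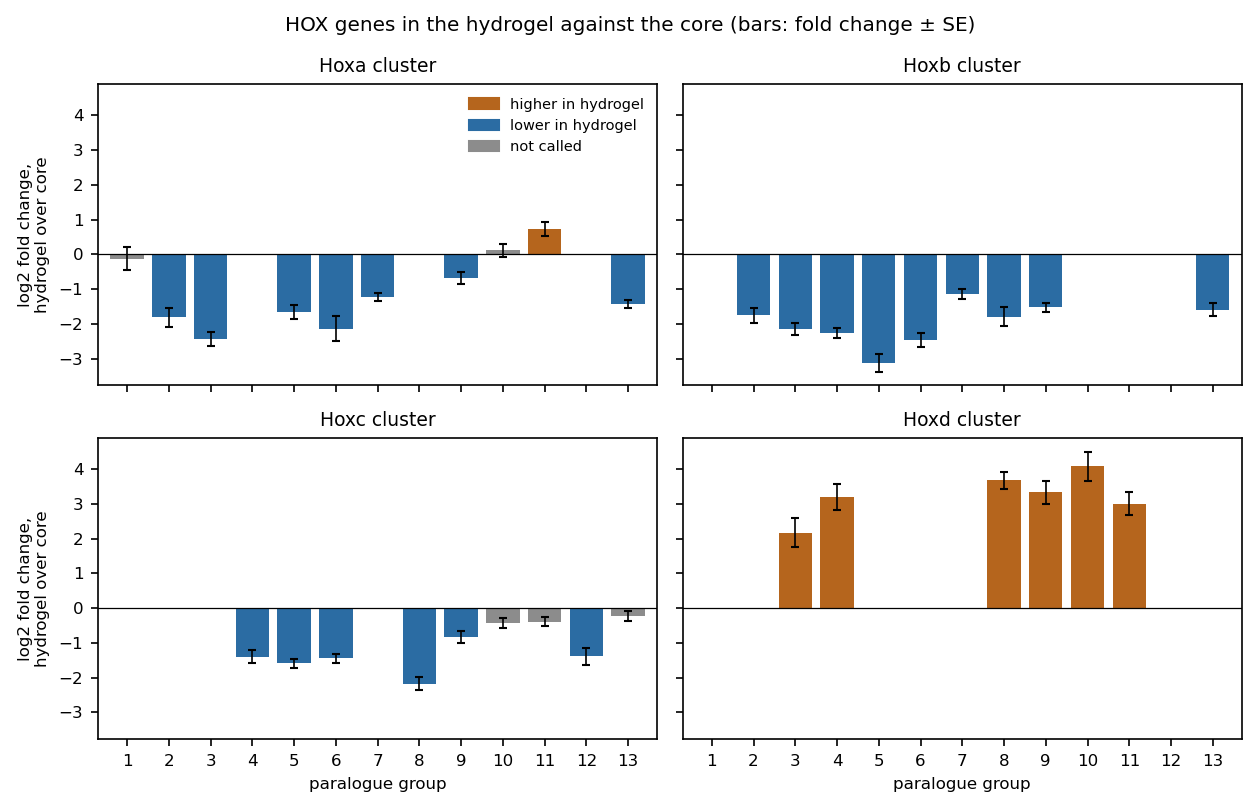
Log2 fold change, hydrogel over core (bars, ± SE), of each tested HOX gene by paralogue group (1 to 13) in the 4 clusters. Bars of the Hoxd cluster all point up, between 2.16 and 4.07, whereas Hoxb bars all point down, between -1.13 and -3.13. Missing bars are genes that were too low to test or do not exist.

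Of 20 other limb position genes tested, 12 were higher and 3 lower (median 0.97). Pitx1, the factor that specifies hindlimb identity, had 8.53 to 18.3 CPM in hydrogels (median 12.1), against 0.268, 0.417, 0.163 and 0.329 CPM in cores (43.7-fold, 5.45 ± 0.32, adjusted p = 2.14e-07). Shox2, a limb bone and tendon patterning factor, had 17.6 to 46.1 CPM in hydrogels (median 29.9), against 0.563, 0.833, 0.751 and 1.28 CPM in cores (5.16 ± 0.34). Hand2 and Isl1, early limb bud factors, had 7.02 to 16.9 and 3.15 to 7.95 CPM in hydrogels, against 0 to 0.387 and 0.134 to 0.725 CPM in cores. Tbx15 had 42.7 to 76.2 CPM in hydrogels (median 62.2), against 8.05, 9.79, 5.84 and 8.96 CPM in cores (2.88 ± 0.19). In these 5 genes each hydrogel stood above each core, and cell-free cores were at 0.0883 to 0.229 CPM for Pitx1 and 0.485 to 0.615 CPM for Shox2 on the scale of all 32 libraries. Tbx4, the other hindlimb factor, had 8.51 to 15.6 CPM in hydrogels (median 12.3), against 7.78, 8.36, 9.47 and 8.89 CPM in cores and sat at the edge of the call (0.50 ± 0.15), which 10 alternatives ended.

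Of the 12 lower genes with the lowest p, 4 encode developmental transcription factors or cofactors. Meis1, a HOX cofactor, had 9.12 to 13 CPM in hydrogels (median 10.2), against 52.2, 39.3, 48.9 and 46.8 CPM in cores (-2.14 ± 0.11), and Pknox2, of the same homeobox class, had 5.77 to 10.3 CPM in hydrogels (median 6.54), against 52.2, 47.7, 55.97 and 50.2 CPM in cores (-2.83 ± 0.14). Eya1 had 7.66 to 11.7 CPM in hydrogels (median 9.03), against 57.2, 50.1, 64.98 and 74.05 CPM in cores (-2.70 ± 0.13) and Zic4, a dorsal trunk factor, had 1.28 to 1.97 CPM in hydrogels (median 1.69), against 9.76, 12.8, 12.9 and 10.1 CPM in cores (-2.79 ± 0.14). The values of these 4 genes, which had been picked by p, were fully separated. Meis2, a relative of Meis1, was lower too (-0.89 ± 0.11). Prrx1, a factor of limb mesenchyme in general, was not called (323 ± 28.8 CPM in hydrogels and 389 ± 27.7 CPM in cores, SD, -0.27 ± 0.08). With at least 10 counts asked of every sample, 6 of 15 limb position genes were higher (median 0.39).

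**Figure D4:**
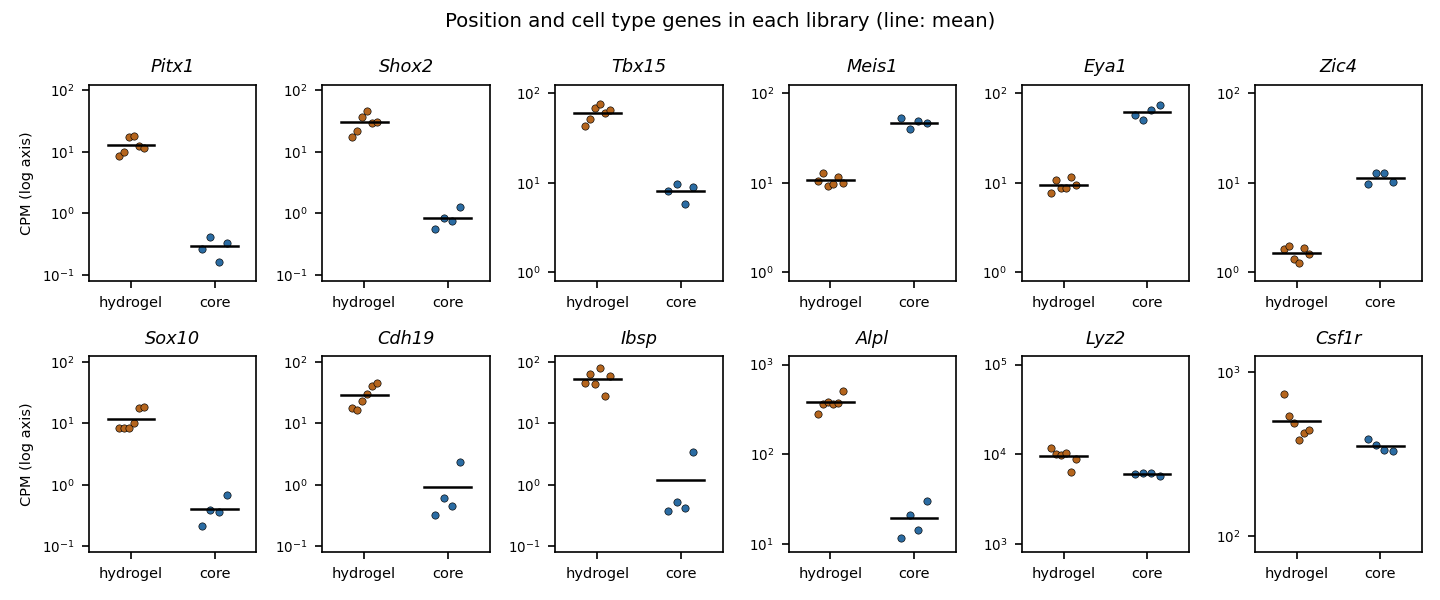
CPM on a log axis in each of the 6 hydrogel and 4 core libraries for 12 position and cell type genes (line: mean of the group). Pitx1, Shox2, Tbx15, Sox10, Cdh19, Ibsp and Alpl lie higher in each hydrogel than in each core, as does Lyz2 by a small margin, Meis1, Eya1 and Zic4 lie lower, and Csf1r overlaps. Core replicate 4 is the highest core for Cdh19, Ibsp, Sox10 and Alpl.

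Most cell cycle genes were higher in the hydrogel. All 32 G2/M and mitosis genes tested were called higher (median 1.27), as were 25 of 30 G1/S and replication genes (median 0.91), with 0 lower in either list. Cdk1, the kinase that starts mitosis, had 23.4 to 37.3 CPM in hydrogels (median 29.7), against 9.36, 13.2, 8.65 and 10.1 CPM in cores (1.56 ± 0.14, adjusted p = 3.32e-06). Its partner Ccnb1 (cyclin B1) had 12.8 to 25.2 CPM in hydrogels (median 18.6), against 6.81, 7.23, 4.28 and 6.09 CPM in cores (1.62 ± 0.19), and Cdc20, which triggers anaphase, had 12.3 to 23.3 CPM in hydrogels (median 17.3), against 4.96, 6.25, 5.03 and 4.55 CPM in cores (1.77 ± 0.17). Rrm2, a subunit of the enzyme that makes deoxynucleotides, had 39.7 to 53.1 CPM in hydrogels (median 50.1), against 15.2, 20.6, 13.8 and 15.7 CPM in cores (1.58 ± 0.12). The lowest hydrogel was above the highest core in 31 of these 32 called mitotic genes, beside 2490 of all 2905 genes called higher. Cores were not silent, since the mitotic list summed to 650 to 1352 CPM in hydrogels and 328 to 506 CPM in cores. All 15 replication-dependent histone genes were higher too (median 1.89), although near-identical copies among them can share reads and single members are uncertain.

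The inhibitors of the cycle did not move as a group. Of 20 inhibitor and quiescence genes, 7 were higher and 1 lower (median 0.15). Cdkn2b, the p15 inhibitor of cyclin D kinases, had 43.9 to 79.1 CPM in hydrogels (median 67.6), against 6.36, 8.75, 11.1 and 8.23 CPM in cores (2.91 ± 0.19), and Cdkn2a, whose locus encodes p16 and p19ARF, had 16.6 to 25 CPM in hydrogels (median 17.8), against 1.72, 3.09, 3.75 and 2.93 CPM in cores (2.75 ± 0.20). Both were higher in each hydrogel than in each core, beside the cell cycle genes they are known to restrain, and so was Cdkn1a, or p21 (117 ± 13.1 CPM in hydrogels and 47.2 ± 2.62 CPM in cores, SD, 1.30 ± 0.09). Cdkn1b (p27), a marker of resting cells, was the 1 lower gene, with 38.3 to 47.4 CPM in hydrogels (median 43.5), against 72.3, 61.2, 71.7 and 73.8 CPM in cores (-0.69 ± 0.07). The cyclin genes Ccnd1 (1.06 ± 0.07) and Ccnd2 (1.13 ± 0.10) were higher.

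Genes of protein synthesis and energy metabolism were mostly higher in the hydrogel by small amounts. Of 75 cytosolic ribosomal protein genes, 71 were higher and 0 lower (median 0.67), and 37 of 55 nuclear genes of oxidative phosphorylation were higher and 0 lower (median 0.64). Rpl19 averaged 376 ± 11.5 CPM in hydrogels and 210.3 ± 17.8 CPM in cores (SD, 0.84 ± 0.07). The 9 tested genes of the mitochondrial genome ran the other way, with 5 lower and 0 higher (median -0.52), 3 lower without core replicate 4 or hydrogel replicate 4. The mitochondrial share of all counts was 0.556% to 0.655% in hydrogels and 0.748% to 0.944% in cores. Many genes of the ribosomal and respiratory lists are short, and fold change followed transcript length: over 10440 genes above 8 CPM, the median was 0.38 in the quartile of the shortest exonic length and -0.16 in that of the longest. With levels centred on length, an alternative chosen after seeing the data, 31 ribosomal and 18 oxidative phosphorylation genes were higher (medians 0.44 and 0.39), Rpl19 was not called (0.45), and 8 mitochondrial genes were lower. Ribosomal proteins have many processed copies in the genome, so single values may be shared with them.

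Glycolysis and antioxidant genes were higher as well. Of 20 glycolysis genes, 11 were higher and 1 lower (median 0.64), the higher ones including Pgk1 (1.07 ± 0.16), Ldha (0.76 ± 0.13) and Eno1 (0.66 ± 0.14). Among 28 hypoxia targets, 8 were higher and 5 lower (median 0.40), with Ndrg1 (-1.19 ± 0.12), Adm (-1.15 ± 0.14) and Kdm3a (-0.86 ± 0.07) among the lower. The shares were 28.6% higher and 17.9% lower, beside 18.1% and 24.7% of all genes tested. Without core replicate 4, 5 were higher and 6 lower (median 0.16). With the pools as blocks, 8 were higher and 7 lower (median 0.11). Targets of NRF2, the factor of the antioxidant response, were higher in 15 of 21 cases and lower in 0 (median 0.70). Gsta4, a glutathione transferase that clears lipid aldehydes, had 11.8 to 73.03 CPM in hydrogels (median 42.3), against 1.1, 1.75, 1.37 and 2.44 CPM in cores (24.7-fold, 4.63 ± 0.51), with each hydrogel above each core. Nqo1 was higher too (21.1 ± 5.1 CPM in hydrogels and 6.5 ± 0.453 CPM in cores, SD, 1.70 ± 0.18). Amino acid and serine synthesis genes under ATF4 were higher in 10 of 21 cases, Psat1 (1.46 ± 0.13) and Phgdh (1.41 ± 0.25) among them. Cholesterol and fatty acid synthesis genes hardly differed, with 0 higher and 2 lower of 25 (1 lower with the pools as blocks, median -0.03).

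Proteases split by family. Of 24 ADAMTS and ADAM genes, 13 were lower and 3 higher in the hydrogel (median -0.61). Adamts5, an aggrecanase, had 124 to 185 CPM in hydrogels (median 162), against 622, 600.2, 556 and 875 CPM in cores (-2.08 ± 0.15), and Adamts6 had 6.7 to 11.1 CPM in hydrogels (median 7.79), against 43.5, 39.7, 47.9 and 46.3 CPM in cores (-2.45 ± 0.13). Both were fully separated between compartments, and Adamts1 (-1.66 ± 0.06), Adamts15 (-2.56 ± 0.29) and the procollagen protease gene Adamts2 (-1.23 ± 0.19) were lower as well. Adamts4 was higher (1.02 ± 0.13). Adam10 (0.33 ± 0.07) and Adam17 (0.25 ± 0.06), membrane sheddases, had small adjusted p-values and fold changes under the threshold.

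Of 18 matrix metalloproteinase genes, 8 were higher and 4 lower (median 0.53, 0.23 with no filter on low counts), and the most abundant ones went in different directions. Mmp13, a collagenase, had 5335 to 10990 CPM in hydrogels (median 7649), against 4425, 3731, 4674 and 5789 CPM in cores (0.78 ± 0.21, adjusted p = 0.00529), and the lowest hydrogel lay under the highest core. Mmp3 (stromelysin 1) had 7408 to 11516 CPM in hydrogels (median 9614), against 13159, 16074, 15608 and 18998 CPM in cores (-0.77 ± 0.16) without overlap. Mmp14, the membrane-bound collagenase that activates Mmp2, had 832 to 1454 CPM in hydrogels (median 1079), against 438, 521, 509 and 571 CPM in cores (1.10 ± 0.16). Mmp9, a gelatinase of myeloid cells and osteoclasts, ranged widely, with 89.98 to 899 CPM in hydrogels (median 176), against 131, 64.1, 78.5 and 60.1 CPM in cores (1.97 ± 0.61, adjusted p = 0.0128). Its fold change was 1.34 without hydrogel replicate 1, the highest of them. Inhibitors of proteases were higher in 9 of 18 cases and lower in 4. Timp1, the inhibitor of metalloproteinases, had 885 to 1036 CPM in hydrogels (median 966), against 360.4, 322, 300.1 and 325 CPM in cores (1.55 ± 0.08), and Serpine2, which blocks thrombin and plasminogen activators, had 224 to 382 CPM in hydrogels (median 348), against 32.6, 43.7, 35 and 34.98 CPM in cores (3.13 ± 0.17). Each hydrogel exceeded each core in both. Cathepsins and other lysosomal genes were higher in 10 of 20 cases and lower in 0, Ctsk (0.90 ± 0.20) and Npc2 (0.97 ± 0.08) among them, and 6 were higher in a fit of all 7 groups of the series.

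Growth factor pathways differed ligand by ligand. The BMP list had 10 higher and 7 lower genes of 24. Bmp4, a ligand that drives bone and cartilage formation, had 2.65 to 5.65 CPM in hydrogels (median 3.92), against 31.4, 29.96, 38.4 and 50.7 CPM in cores (9.19-fold lower, -3.20 ± 0.21), and Bmp6 (-1.86 ± 0.20), the receptor gene Bmpr1b (-2.06 ± 0.13) and the antagonist gene Chrd (-1.70 ± 0.10) were lower too. The BMP target genes Id1 and Id3, which block differentiation factors, were higher: Id1 had 28.4 to 44.5 CPM in hydrogels (median 34.6), against 6.3, 10.3, 9.76 and 6.69 CPM in cores (2.07 ± 0.17) and Id3 had 129 to 197 CPM in hydrogels (median 168), against 46.3, 53.02, 55.1 and 52.6 CPM in cores (1.68 ± 0.11). The ligand and its targets thus differed in opposite directions, each without overlap. The feedback inhibitors Smad6 (1.68 ± 0.13) and Smad7 (1.70 ± 0.10) and the antagonist gene Nog (1.62 ± 0.20) were higher.

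For TGF-beta, 9 of 20 genes were higher and 3 lower. Inhba, which encodes activin A, had 98.5 to 133 CPM in hydrogels (median 113), against 33.6, 41.2, 26.8 and 27.3 CPM in cores (1.81 ± 0.13), and Tgfb1 averaged 114 ± 13 CPM in hydrogels and 51.5 ± 5.94 CPM in cores (SD, 1.15 ± 0.10). Receptor and transducer genes were the lower ones: Tgfbr3, the co-receptor betaglycan, had 244 to 327 CPM in hydrogels (median 275), against 626, 565, 588 and 809 CPM in cores (-1.20 ± 0.12), and Tgfbr1 (-0.87 ± 0.07) and Smad3 (-1.13 ± 0.08) were lower too. In the Wnt list, 12 of 27 genes were higher and 7 lower. Notum, an enzyme that inactivates Wnt ligands, had 12.3 to 24.9 CPM in hydrogels (median 16.2), against 1.05, 1.93, 1.31 and 0.988 CPM in cores (3.69 ± 0.27), and Rspo2, which amplifies Wnt signals, had 24.9 to 66.4 CPM in hydrogels (median 58.8), against 4.53, 8.66, 8.1 and 7.64 CPM in cores (2.88 ± 0.29). Wif1, a secreted Wnt inhibitor, had 2.51 to 5.81 CPM in hydrogels (median 4.08), against 41.4, 16.4, 21.3 and 31.99 CPM in cores (-2.77 ± 0.26), and Dkk2 (-1.85 ± 0.17) and Wnt16 (-2.05 ± 0.18) were lower. None of Notum, Rspo2 and Wif1 overlapped between compartments.

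Growth factor and receptor genes were higher in 12 of 36 cases (33.3%) and lower in 10 (27.8%), beside 18.1% and 24.7% of all genes. Their summed level was 6716 to 8418 CPM in hydrogels and 12883 to 17773 CPM in cores. Igfbp5, an IGF-binding protein, accounted for most of that gap, with 622 to 1594 CPM in hydrogels (median 1191), against 9990, 5402, 6290 and 8218 CPM in cores (6.44-fold lower, -2.69 ± 0.25), and Igf1 had 513 to 712 CPM in hydrogels (median 592), against 1801, 1478, 1892 and 2113 CPM in cores (-1.61 ± 0.11). Pappa, whose product cleaves IGF-binding proteins, had 63.3 to 83.6 CPM in hydrogels (median 78.7), against 9.95, 9.88, 5.97 and 8.83 CPM in cores (3.11 ± 0.15), and Igfbp2 was higher (14.7 ± 3.39 CPM in hydrogels and 1.93 ± 0.773 CPM in cores, SD, 2.94 ± 0.26). Hydrogel and core values of these genes did not overlap. Hgf, the ligand of the receptor Met, had 56.4 to 89.98 CPM in hydrogels (median 77.7), against 10.7, 16.04, 11.8 and 14.5 CPM in cores (2.48 ± 0.16), and Met itself was lower (52.4 ± 5.23 CPM in hydrogels and 133 ± 13.5 CPM in cores, SD, -1.35 ± 0.08). Fgf7 was higher (1.51 ± 0.13) and Fgf9 lower (-2.66 ± 0.20). Neuronal guidance genes were lower in 10 of 27 cases (37%, beside 24.7% of all genes) and higher in 6 (22.2%, beside 18.1%). Sema3d had 15.5 to 28.8 CPM in hydrogels (median 21.8), against 114, 126, 149.5 and 153 CPM in cores (-2.62 ± 0.15), whereas Slit2 had 40.5 to 72.9 CPM in hydrogels (median 56.02), against 4.08, 12.7, 6.56 and 11.1 CPM in cores (2.73 ± 0.29).

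Markers of paratenon and adventitial progenitors did not sit together in the hydrogel. Of 20 tested, 7 were lower and 4 higher (median -0.18). Dpp4, which marks reticular and adventitial fibroblast progenitors, had 0.262 to 1.58 CPM in hydrogels (median 0.805), against 12.98, 9.73, 11.8 and 16.9 CPM in cores (-3.94 ± 0.32), and Dpt (dermatopontin) had 41.8 to 95.3 CPM in hydrogels (median 74.2), against 407, 143, 321 and 279 CPM in cores (-1.99 ± 0.26). Both were lower in each hydrogel. The stromal markers Ly6a (-0.71 ± 0.09), Ly6c1 (-1.92 ± 0.30) and Thy1 (-0.78 ± 0.09) were lower and Cd248 (1.93 ± 0.14), Nes (1.90 ± 0.30) and Tppp3, a marker of sheath progenitors (0.67 ± 0.20), were higher, and Tppp3 was not called with levels centred on length (0.47). Pdgfra, a fibroblast marker in general (496 ± 49 CPM in hydrogels and 613 ± 65.1 CPM in cores, SD, -0.30 ± 0.09), and Pdgfrb (269 ± 27.1 CPM in hydrogels and 258 ± 30.0 CPM in cores, SD, 0.06 ± 0.09) overlapped between the compartments and were not called.

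Genes of acute responses were more often higher than lower. Of 22 immediate early genes, 10 were higher and 2 lower (4 lower with the pools as blocks), Fosl1 (2.22 ± 0.29), Jun (0.96 ± 0.09) and Atf3 (1.10 ± 0.15), subunits of the AP-1 family, among the higher and the nuclear receptor gene Nr4a3 (-2.68 ± 0.26) among the lower. Of 18 feedback genes of ERK signalling, 8 were higher and 4 lower. The phosphatase gene Dusp4 (1.48 ± 0.19) and the ligand gene Ereg (2.04 ± 0.26) were higher, and the inhibitors Spry1 (-0.78 ± 0.12) and Spry2 (-0.92 ± 0.05) were lower. Chaperones and secretion genes of the endoplasmic reticulum were higher in 3 of 25 cases and lower in 0, a count of 1 to 6 over the alternatives.

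Inflammatory genes were mixed. Of 24 chemokine genes, 10 were higher and 2 lower (median 0.49). With levels centred on length, 9 were higher and 3 lower, and the median was 0.11. The lower count was 1 without hydrogel replicate 3, 4 or 5 or core replicate 2 or 4. It was 4 without core replicate 3 and with the pools as blocks. Ccl2 (1.47 ± 0.12), Cxcl1 (1.85 ± 0.23) and Cxcl5 (1.64 ± 0.27), attractants of monocytes and neutrophils, were higher. Of 25 NF-kB and inflammatory genes, 8 were higher and 2 lower, and the lower count was 0 without hydrogel replicate 1, 3 or 5 or core replicate 4, 1 without core replicate 1 or 3, and 0 in the fit of all 7 groups. Ptgs2, the inducible enzyme of prostaglandin synthesis, had 38.7 to 68 CPM in hydrogels (median 51.2), against 7.21, 13.2, 6.11 and 7.84 CPM in cores (2.59 ± 0.23), above each core in each hydrogel. Complement genes were split, with 7 lower and 6 higher of 20 (35% and 30%, beside 24.7% and 18.1% of all genes). C3, the central component, had 1284 to 2394 CPM in hydrogels (median 1859), against 4596, 3558, 4415 and 6306 CPM in cores (-1.33 ± 0.20), C4b had 74.1 to 111 CPM in hydrogels (median 93.2), against 220.5, 318, 622 and 513 CPM in cores (-2.19 ± 0.24), and Cfb (factor B) had 174 to 602 CPM in hydrogels (median 415), against 1518, 1145, 1417 and 1959 CPM in cores (-1.91 ± 0.32). These 3 were lower in each hydrogel than in each core. Interferon response genes were higher in 11 of 30 cases and lower in 3, and the lower count was 0 without hydrogel replicate 4 or core replicate 2 and 1 without hydrogel replicate 3 or 6 or core replicate 1 or 4.

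The IL-6 family, which the series was designed around, differed little between compartments. Of 26 ligands, receptors and transducers, 4 were higher and 4 lower (median 0.09), near or under the background of all genes. Il6 had 4.29 to 9.68 CPM in hydrogels (median 7.84), against 5.98, 11.5, 4.8 and 9.12 CPM in cores (-0.12 ± 0.28, adjusted p = 0.712), and its receptor Il6ra had 13.2 to 21.9 CPM in hydrogels (median 14.5), against 18.8, 18, 16.4 and 17.1 CPM in cores (-0.15 ± 0.13, adjusted p = 0.316). Both overlapped between compartments and were not called. Il6st (gp130), the signal transducer shared by the family, was lower, with 681 to 911 CPM in hydrogels (median 745), against 1263, 1102, 1105 and 1206 CPM in cores (-0.62 ± 0.10), though its fold change was -0.38 with levels centred on length. The receptor genes Lifr (-0.81 ± 0.11) and Osmr (-0.89 ± 0.07) were lower as well. Il11 had 3.27 to 20.6 CPM in hydrogels (median 5.26), against 1.18, 4.97, 2.65 and 0.889 CPM in cores (1.98 ± 0.69, adjusted p = 0.0222), with overlapping groups, and lost its call without core replicate 1 or core replicate 4.

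Macrophage genes were abundant in both compartments. The 28 markers, 24 of them tested, summed to 10857 to 19789 CPM in hydrogels and 10274 to 10876 CPM in cores. Of those tested, 13 were higher and 1, Cd163 (-0.85 ± 0.24), lower (median 0.53), and 5 were higher when all 7 groups of the series shared the estimate of spread. Lyz2, a lysozyme of myeloid cells, had 6375 to 11611 CPM in hydrogels (median 9913), against 5961, 6200, 6193 and 5712 CPM in cores (0.65 ± 0.16), and was not called in that fit or with levels centred on length. Csf1r, the receptor of the added growth factor, had 387 to 737 CPM in hydrogels (median 466), against 391, 358, 336 and 331 CPM in cores, overlapping, and lost its call in 12 alternatives, the pool block (0.39) among them. Ptprc, which defines blood cells, was not called (187 ± 42.9 CPM in hydrogels and 161 ± 13.1 CPM in cores, SD). The part of macrophage content in the lysosomal, chemokine and complement results was not tested.

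Osteoclast genes, which such macrophages can express, were higher in 8 of 13 cases and lower in 0 (median 1.37), with a summed level of 917 to 2705 CPM in hydrogels and 516 to 865 CPM in cores. Acp5 (1.98 ± 0.77), Car2 (2.11 ± 0.73) and Atp6v0d2 (1.13 ± 0.40) were called with overlapping groups, and Acp5 lost its call without hydrogel replicate 1 or 2 or core replicate 2, 3 or 4. The fusion genes Dcstamp (1.98 ± 0.87) and Ocstamp (1.55 ± 0.82) were not called. Without core replicate 2 or core replicate 4, 4 of the 13 were higher, and the median was 0.79 without hydrogel replicate 1 and 0.76 with the pools as blocks. Major histocompatibility class II genes were low in both (a sum of 44.5 to 71.3 CPM in hydrogels and 42.9 to 57.0 CPM in cores over 14 genes, 11 of them tested).

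Bone-forming genes were higher in the hydrogel, in 12 of 16 cases, with 2 lower (median 1.82). With at least 10 counts in every sample, 8 of 12 were higher and 2 lower (median 0.94). Alpl, the alkaline phosphatase of mineralising tissue, had 282 to 502 CPM in hydrogels (median 368), against 11.4, 21.1, 14.2 and 29.9 CPM in cores (19.8-fold, 4.31 ± 0.28). Ibsp (bone sialoprotein) had 28.1 to 80.5 CPM in hydrogels (median 52.1), against 0.376, 0.536, 0.424 and 3.49 CPM in cores (5.51 ± 0.56), and Sp7, the osteoblast transcription factor, had 7.76 to 18.6 CPM in hydrogels (median 10.9), against 0.188, 0.149, 0.098 and 1.12 CPM in cores (4.96 ± 0.51). Core replicate 4 was above the other cores for both, and without it their fold changes were 6.90 and 6.30. Runx2, which acts before Sp7, had 22.7 to 31.9 CPM in hydrogels (median 26.6), against 11.2, 14.01, 11.5 and 10.97 CPM in cores (1.15 ± 0.11). Bglap, the osteocalcin gene of mature osteoblasts, was higher at a low level (0.41 ± 0.298 CPM in hydrogels and 0.0223 ± 0.0151 CPM in cores, SD), and Dmp1, an osteocyte gene, was too low to test. Mgp, an inhibitor of mineralisation, was lower (603 ± 154 CPM in hydrogels and 2005 ± 440.0 CPM in cores, SD, -1.73 ± 0.20).

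Cartilage genes were higher in 7 and lower in 4 of 15 cases. Sox9, the cartilage and tendon progenitor factor, had 25.8 to 37.5 CPM in hydrogels (median 30.9), against 9.31, 7.11, 8.1 and 7.12 CPM in cores (1.96 ± 0.13), and Col2a1, the main collagen of cartilage, had 16.8 to 76.8 CPM in hydrogels (median 29.9), against 1.72, 1.64, 1.7 and 2.87 CPM in cores (21.1-fold, 4.40 ± 0.51). Both stood apart from the cores. Chst11 (1.96 ± 0.17) and Col9a2 (2.63 ± 0.35) were higher, and Sox6 (-1.09 ± 0.12), Matn3 (-1.87 ± 0.58), Col11a1 and Col11a2 were lower. Other defining cartilage genes (Cnmd, Matn1, Snorc, Col9a1) were too low to be tested.

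Schwann cell and glial genes were higher in the hydrogel in 8 of 13 cases and lower in 0 (median 1.39, 0.90 without core replicate 3 and 0.61 with no filter on low counts). With upper-quartile scaling 2 were called lower, and with the pools as blocks 1 was. Compartments did not overlap for 7 members higher in the hydrogel and for 2 uncalled members lower there. Among all called genes, they did not overlap for 2490 of 2905 higher and 3555 of 3965 lower ones. The summed level overlapped, with 449 to 624 CPM in hydrogels and 383 to 515 CPM in cores. Sox10, the factor that defines the lineage, had 8.3 to 18.5 CPM in hydrogels (median 9.31), against 0.215, 0.387, 0.359 and 0.692 CPM in cores (29.2-fold, 4.87 ± 0.40, adjusted p = 1.51e-06). Foxd3 had 4.42 to 10.6 CPM in hydrogels (median 5.37), against 0.0805, 0.0893, 0.098 and 0.329 CPM in cores (5.49 ± 0.47), and Cdh19, an adhesion molecule of Schwann cell precursors, had 16.7 to 45.3 CPM in hydrogels (median 26.6), against 0.322, 0.6248, 0.457 and 2.34 CPM in cores (4.98 ± 0.53). Without core replicate 4, their fold changes were 6.18 for Foxd3 and 5.95 for Cdh19. Ngfr, the low-affinity nerve growth factor receptor, averaged 66.7 ± 27.2 CPM in hydrogels and 6.1 ± 2.58 CPM in cores (SD, 3.46 ± 0.37), and Erbb3, the neuregulin receptor that Schwann cells need, averaged 18.6 ± 6.01 CPM in hydrogels and 2.85 ± 0.515 CPM in cores (SD, 2.70 ± 0.24). The groups did not overlap in either gene. Of myelin genes, Mbp was not called (28.8 ± 6.16 CPM in hydrogels and 30.5 ± 0.515 CPM in cores, SD, -0.08 ± 0.13), and Ncmap was too low to test. In cell-free cores, Sox10 was at 0.0883 to 0.179 CPM on the scale of all 32 libraries, and Foxd3 had 0 counts in all 4.

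Other cell types were at low levels. Endothelial Pecam1 had 0.039 to 0.454 CPM in hydrogels (median 0.252), against 0.456, 0.297, 0.294 and 0.857 CPM in cores and Cdh5 had 0.234 to 0.802 CPM in hydrogels (median 0.442), against 0.268, 0.178, 0.131 and 0.659 CPM in cores, and neither was called, although Cdh5 was called without core replicate 4 (1.29). Of 14 endothelial genes tested, 4 were higher, Kdr (1.11 ± 0.29) among them, and 3 lower, Tek (-2.21 ± 0.44) among them. Skeletal muscle genes were lower in 4 and higher in 1 (Des, 2.24 ± 0.32) of 10 cases, with a level of 9.75 to 29.7 CPM in hydrogels and 30.4 to 49.1 CPM in cores summed over all 22 listed genes. The lower count was 2 of 6 with at least 10 counts in every sample, 7 of 16 in the fit of all 7 groups and 9 of 22 with no filter, as the number of genes tested changed. Myh1 had 0.262 to 1.34 CPM in hydrogels (median 1.09), against 6.36, 4.94, 11.8 and 8.14 CPM in cores (-3.09 ± 0.39) and Myh2 had 0 to 0.335 CPM in hydrogels (median 0.23), against 3.94, 2.35, 5.65 and 3.82 CPM in cores (-4.26 ± 0.41), fast myosins found in both cores with fibroblasts and cell-free cores (2.48 to 9.62 CPM for Myh1). The muscle factors Myod1, Myog and Pax7 were too low to test. Lymphocyte markers summed to 1.18 to 7.33 CPM in hydrogels and 7.43 to 11.1 CPM in cores, with 13 of 15 too low to test.

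**Figure D5:**
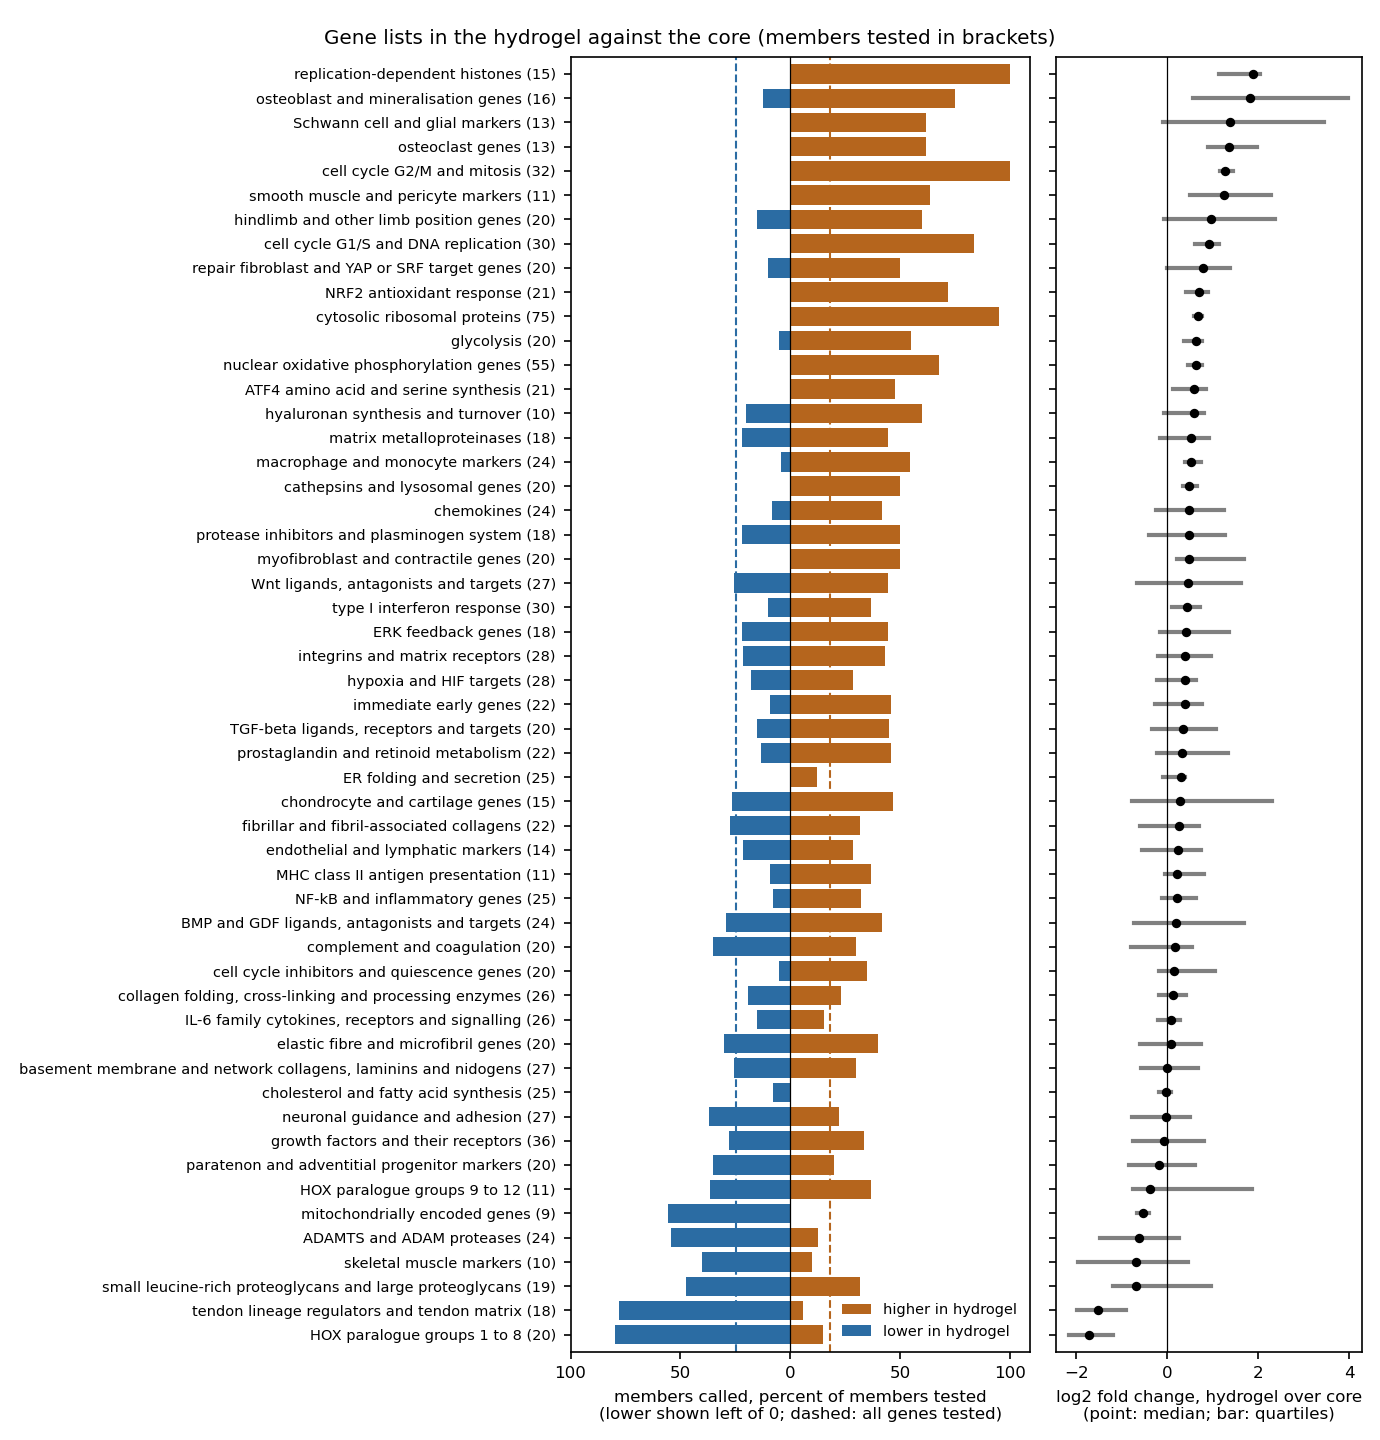
Share of tested members called higher (brown, right) or lower (blue, left) in the hydrogel for each gene list of at least 9 tested members, in percent, with dashed lines at 18.1% and 24.7% for all genes tested. The right panel gives the median log2 fold change, hydrogel over core, and the quartiles of the members. Histone, mitotic and ribosomal lists reach or approach 100% higher, and HOX groups 1 to 8 (80.0%) and tendon genes (77.8%) have the highest shares lower.

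Y-linked genes differed between pools in both compartments. Ddx3y had 9.44, 11.8, 19.8, 71.1, 66.7 and 72.5 CPM in hydrogel replicates 1 to 6, against 0.268, 0.536, 99.1 and 102 CPM in core replicates 1 to 4. Core replicates 1 and 2 were under 1 CPM and core replicates 3 and 4 near or above 99 CPM. The hydrogels matched to them by run code and N number were replicates 2 and 3, among the lower ones, and replicates 4 and 6, among the higher ones. Whether all hydrogels held the same mix of seeded donors was not tested. None of the 4 Y-linked genes was called (adjusted p between 0.502 and 0.84).

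The same contrast was available in assembloids whose cores were labelled KO, with 6 hydrogels and 4 cores that are not among these 10 libraries. Both sets carry the same run codes in their titles, and their hydrogels were seeded with the same kind of cells. Calls shared between the sets are therefore no independent replication. In the KO-labelled assembloids, 2734 of 16084 genes were higher (17%) and 3954 lower (24.6%) in the hydrogel. RNA counts of Il6, the targeted gene, were not lower under that label: it had 10.6 to 35.1 CPM of the library total in the 4 cores labelled KO and 4.88 to 12.3 CPM in the 4 WT cores. The seeded fibroblasts were wildtype in both. In cell-free cores it had 6.84 to 20 CPM under the KO label and 2.08 to 12.5 CPM in WT. Whether these counts come from the disrupted part of the gene was not tested. They do not measure protein, which the paper compared in supernatants of cell-free WT and KO cores. Of the WT calls, 2126 higher genes (77.8% of the KO-labelled and 73.2% of the WT calls) and 3405 lower genes (86.1% of the KO-labelled and 85.9% of the WT calls) were shared, and 0 were called in opposite directions. In a fit of all 20 libraries, the difference between the contrasts was called for 0 of 16603 genes (edgeR quasi-likelihood test), with 622 at an unadjusted p under 0.05, and DESeq2 also called 0. This does not show that the contrasts were equal. For named genes, the log2 fold changes in KO-labelled assembloids were 5.31 for Pitx1, -1.50 for Mkx, 2.99 for Tagln, -2.91 for Bmp4 and -0.60 for Scx, beside 5.45, -1.76, 3.41, -3.20 and -1.15 in WT assembloids. Tendon genes were lower in 9 of 18 cases there and in 14 of 18 in WT assembloids, and the median over the list was -1.20 there and -1.53 here. Macrophage markers were higher in 0 of the tested genes there and in 13 of 24 here, with medians of 0.58 there and 0.53 here.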

How the data were processed

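Total RNA of pooled hydrogels or core explants was ribo-depleted and sequenced as stranded libraries. The authors deposited estimated counts per gene for each sample, as whole numbers, made by pseudoalignment with kallisto 0.46.1 on GRCm39, per the labels. The annotation release was not given in the sources used here. DESeq2 is also named in the submitters' notes. Pools with low RNA integrity were accepted by the study, and no integrity value per library was used here.

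Groups were taken from the sample titles. Of 25700 gene IDs, 25587 were paired with a symbol from a reference table, and the gene type and exonic length of GENCODE M21 served for annotation only. Genes were kept by filterByExpr, scaled by trimmed mean of M-values and compared on the 10 libraries in edgeR 4.0.16 (R 4.3.3) by its quasi-likelihood method. Calls required an adjusted p under 0.05 and a log2 fold change beyond 0.5. SE is the fold change over the square root of F. The script was tested on simulated data.

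In the study, only the cells that had left the core for the hydrogel came from the mouse of that core. The seeded fibroblasts were pooled from several mice. The run code and N number in the titles match core 1 with hydrogel 2 and core 2 with hydrogel 3. They also match core 3 with hydrogel 4 and core 4 with hydrogel 6. Reading the N number as the pool is an assumption, since the labels do not define it. Deviations of these pairs from the group means correlated (r = 0.272, 0.371, 0.382 and 0.39). Pairs that share only the run code gave 0.35 (core 1, hydrogel 1), -0.0752 (core 2, hydrogel 4), -0.0235 (core 3, hydrogel 3) and 0.137 (core 4, hydrogel 5). The pool was therefore fitted as a block in an alternative.

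The comparison and the 61 gene lists were chosen with earlier results of these data known. Named genes were the 12 with the lowest p in each direction (log2 fold change beyond 2, at least 10 CPM in the higher group, no unnamed or sex-linked gene), up to 8 members of each list by p, all position, sex-linked and study-named genes, and defining cell type markers. Those shown per sample were picked from them after values were seen. Alternatives were other scalings, filters, thresholds and tools, the blocks, and each library left out. Chosen after seeing the data were protein-coding genes only, genes of at least 10 CPM, subtraction of the per-base level of receptor genes, and centring on exonic length. Some items are not reported here.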

Additional observations from a re-analysis of the deposited data

Results flagged for a closer look

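Of 244 sets of values tested (the 119 genes shown by library, the summed receptor genes, library totals and other library measures, in the 6 hydrogels or the 4 cores), 17 had a highest or lowest library that stood apart from the rest by Dixon's test at the 95% level. Chance gives about 5% of such sets.

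Core replicate 4 was the highest core for genes of Schwann cell and bone lineages. Foxd3 was at 0.329 CPM there (0.0805 to 0.098 CPM in the other cores), Cdh19 at 2.34 CPM (0.322 to 0.6248), Ibsp at 3.49 CPM (0.376 to 0.536), Sp7 at 1.12 CPM (0.098 to 0.188) and Col2a1 at 2.87 CPM (1.64 to 1.72). Each of these genes was higher still in every hydrogel. Core replicate 2 was the lowest core for Col1a2, at 10701 CPM (20828 to 22512 in the others), Col11a2, at 79.1 CPM (200 to 217), and Cdkn1b, at 61.2 CPM (71.7 to 73.8), and the highest for Hoxb13, at 22.9 CPM (17.8 to 18.6). Core replicate 1 was the lowest for Hoxd8, at 0.536 CPM (0.914 to 0.952), and Has2, at 5.9 CPM (6.59 to 6.73), and had the largest total, 37.6 M counts (30.1 to 31.3). Core replicate 3 was the lowest for Cnn1, at 0.163 CPM (0.593 to 0.655).

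Among hydrogels, Ccn2 was lowest in replicate 1, at 33.2 CPM (40.8 to 45.1 in the others), Vcan highest in replicate 3, at 1080 CPM (649 to 801), and Hoxb5 highest in replicate 5, at 1.11 CPM (0.37 to 0.645). The receptor genes summed to 22 CPM in hydrogel replicate 5 and to 12.2 to 15.6 CPM in the other hydrogels, all far below the 92.5 CPM of the lowest core.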

How the results depend on the processing

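The counts of 2905 higher and 3965 lower genes moved by over 1.5 times only with other thresholds or filters. With no filter on low counts, 7978 genes were lower and 3502 higher. With no fold threshold, 5432 were higher and 5674 lower. A log2 fold change beyond 1 left 1065 higher and 2581 lower genes, and beyond 2 left 364 higher and 881 lower. Among genes of at least 10 CPM in the higher group, 1398 were lower and 1983 higher. Leaving out 1 library gave 2826 to 3080 higher and 3774 to 4090 lower genes, and DESeq2 gave 2981 and 3929. With upper-quartile scaling 2393 were higher and 4369 lower, and with levels centred on length 2505 and 3872. No scaling moved the median of all genes by over 0.1 or the share of higher calls (42.3%) by over 10 percentage points.

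With the pool as a block, 3030 genes were higher and 4065 lower. The replicate number as a replicate block gave 3038 higher and 3966 lower genes. Those numbers did not pair the libraries (r = 0.35, -0.245, -0.0235 and 0.0258). The pool block ended the calls of Col10a1, Csf1r, Dsp, Mag, Sc5d and Tnfrsf11a. Of 435 called named genes, 0 to 26 lost their call under any 1 alternative, and no called named gene changed direction under an alternative run. Of 61 list medians, 9 changed sign under at least 1 alternative, 5 of them within 0.1 of 0. With no filter on low counts, the median was -0.22 for endothelial markers (0.24 with it), -1.98 for neutrophil and mast cell markers (1.03) and -0.09 for the BMP list (0.20). The BMP median was -0.05 with at least 10 counts in every sample and -0.08 in the replicate block by number. The Y-linked median was 0.22 with the pool block (-0.70 without). For cells that are few in the pools, the depth of 25.1 to 59.9 M counts left 13 of 15 lymphocyte markers too low to test.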

Other observations

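Adipocyte lineage genes were also higher in the hydrogel in 3 of the 7 tested, with 0 lower. Pparg, the master regulator of fat cells, had 2.5 to 4.8 CPM in hydrogels (median 3.49), against 0.617, 1.28, 0.98 and 0.659 CPM in cores (1.96 ± 0.25), Fabp4, a fatty acid carrier, had 13.3 to 25.8 CPM in hydrogels (median 21.2), against 7.51, 9.55, 6.82 and 8.63 CPM in cores (1.35 ± 0.18), and Cebpa had 49.5 to 67.8 CPM in hydrogels (median 60.1), against 33.5, 41.1, 39.9 and 28.2 CPM in cores (0.75 ± 0.12). In these genes no core reached the lowest hydrogel. The 7 other listed genes, which include markers of mature fat cells, were too low to test. Genes of the study's own text, a list that was chosen on these samples and is no independent evidence, were higher in 11 and lower in 7 of 29 cases.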
